A study of Mus musculus with 6 samples.

Results

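H3K27ac peaks of the distal forelimb (DFL, the future digits) were compared with those of the proximal forelimb (PFL, the future arm) in mouse embryos at E12.5. The members were all peaks of both H3K27ac lists on the autosomes and the X chromosome, with lines of the same interval collapsed to 1 region. This gave 59804 DFL regions and 69503 PFL regions, 129307 of the 259737 regions in the 6 samples of the series. Both pieces came from wild-type B6CBAF1 embryos, and the study reanalysed existing libraries, so the number of embryos behind each is not given in the sources used here. The remaining 4 samples were H3K27me3 and CTCF in the same pieces, and 2 lists of HOXA13 and HOXD13 binding in limb buds belonged to no sample. The sample titles give the stage as E12 and the series design as E12.5. There was 1 library per piece, so the piece and its library cannot be told apart, no p-value was computed, and the 95% Wilson intervals below cover counting error only.

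H3K27ac is the acetylation of lysine 27 on histone H3. It lies on the nucleosomes that flank active promoters and enhancers, and the same residue cannot carry the methylation laid down by Polycomb at the same time. In the limb bud, promoters are mostly used by all cells, while enhancers far from genes carry much of the difference between digit and arm mesenchyme. HOXA13 and HOXD13 mark the digit domain, whereas Shox2, Meis1 and Meis2 mark the arm. Each piece also holds cartilage precursors, connective tissue, vessels, nerve, blood and a cover of ectoderm, and muscle precursors enter from the body wall at the proximal end. In bulk tissue, fewer cells of a type and less mark per cell cannot be told apart.

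The strongest single-list regions give the sequences that set the pieces apart most plainly. For each class and list, the highest summit of the region with the highest −log10 q and 100 bp on either side of it were read from GRCm38.p6 (mm10). Regions are named by the nearest start of a protein-coding gene, which need not be the gene they act on. For gene body regions it need not be the gene whose body holds them either. Capitals mark matches to the 15 motif words searched on both strands, and 5 of these 6 windows held no match. The posterior HOX words were CCAATAAA and a second form, CTCGTAAA. The E-box of the myogenic factors was CAGCTG and that of TWIST and HAND was CATCTG. Other words were TGACAG for MEIS and TGIF, TGANTCA for AP-1, AGATAA for GATA factors, ACAATGG for SOX, GGAATG for TEAD, CCGGAAGT for ETS, GGGGCGGGG for SP and KLF, TAATTA for LHX and DLX, GTTGCCAT for RFX, GGATTA for PITX and OTX, and the CTCF core.

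Dbx2, DFL-only promoter, chr15:95654480-95654680, plus strand: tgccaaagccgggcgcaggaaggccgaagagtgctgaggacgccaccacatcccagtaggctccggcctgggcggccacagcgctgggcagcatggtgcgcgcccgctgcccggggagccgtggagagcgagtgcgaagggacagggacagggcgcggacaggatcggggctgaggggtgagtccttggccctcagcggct
Nsg1, DFL-only gene body, chr5:38099837-38100037, plus strand: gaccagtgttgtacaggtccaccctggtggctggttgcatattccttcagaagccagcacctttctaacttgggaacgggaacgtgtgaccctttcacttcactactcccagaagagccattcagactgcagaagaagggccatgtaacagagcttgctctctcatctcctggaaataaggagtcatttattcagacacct
C1s1, DFL-only intergenic, chr6:124552921-124553121, plus strand: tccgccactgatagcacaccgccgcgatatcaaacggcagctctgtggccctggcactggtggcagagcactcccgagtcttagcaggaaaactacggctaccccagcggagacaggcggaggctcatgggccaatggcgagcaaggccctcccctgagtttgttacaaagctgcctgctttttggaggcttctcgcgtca
Kcnh2, PFL-only promoter, chr5:24351964-24352164, plus strand: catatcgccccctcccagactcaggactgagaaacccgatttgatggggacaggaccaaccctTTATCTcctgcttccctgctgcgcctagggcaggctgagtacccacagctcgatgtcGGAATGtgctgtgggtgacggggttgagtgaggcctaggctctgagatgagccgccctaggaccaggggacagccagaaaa
Cdk5r1, PFL-only gene body, chr11:80622412-80622612, plus strand: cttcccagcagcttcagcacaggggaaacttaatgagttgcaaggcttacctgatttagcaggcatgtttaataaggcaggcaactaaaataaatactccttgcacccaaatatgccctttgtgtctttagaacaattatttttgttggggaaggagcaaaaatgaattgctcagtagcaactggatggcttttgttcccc
Smug1, PFL-only intergenic, chr15:103169821-103170021, plus strand: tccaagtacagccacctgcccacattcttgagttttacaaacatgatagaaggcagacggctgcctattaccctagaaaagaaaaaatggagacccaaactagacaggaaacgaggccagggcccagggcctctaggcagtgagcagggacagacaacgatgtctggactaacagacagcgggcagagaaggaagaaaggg

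The Kcnh2 window held TTATCT, the reverse of the GATA word AGATAA, and the TEAD word GGAATG. In windows of that length AGATAA was present at 6.57% of DFL and 6.89% of PFL regions, and GGAATG at 10.9% of DFL and 11.3% of PFL regions. The Dbx2 and C1s1 windows were rich in G and C, at 71.6% and 60.2%. A second set shows the loci found in both lists with the most unequal pileup, for gene bodies and intergenic sequence. The Wnt5a and Slc30a10 loci were higher in DFL, and the Rab4a and Hnrnpa3 loci were higher in PFL.

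Wnt5a, shared locus gene body, chr14:28467651-28467851, plus strand: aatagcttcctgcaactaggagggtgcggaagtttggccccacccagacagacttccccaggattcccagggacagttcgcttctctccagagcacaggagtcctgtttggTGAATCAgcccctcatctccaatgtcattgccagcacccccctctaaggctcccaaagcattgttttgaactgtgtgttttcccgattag
Slc30a10, shared locus intergenic, chr1:185534178-185534378, plus strand: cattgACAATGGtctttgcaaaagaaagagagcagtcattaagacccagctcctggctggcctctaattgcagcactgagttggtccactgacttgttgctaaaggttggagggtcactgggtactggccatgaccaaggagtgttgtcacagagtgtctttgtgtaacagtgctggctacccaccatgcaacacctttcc
Rab4a, shared locus gene body, chr8:123739606-123739806, plus strand: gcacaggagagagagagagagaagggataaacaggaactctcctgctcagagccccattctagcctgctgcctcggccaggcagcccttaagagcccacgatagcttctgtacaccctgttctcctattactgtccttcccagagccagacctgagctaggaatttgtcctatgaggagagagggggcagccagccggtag
Hnrnpa3, shared locus intergenic, chr2:75439059-75439259, plus strand: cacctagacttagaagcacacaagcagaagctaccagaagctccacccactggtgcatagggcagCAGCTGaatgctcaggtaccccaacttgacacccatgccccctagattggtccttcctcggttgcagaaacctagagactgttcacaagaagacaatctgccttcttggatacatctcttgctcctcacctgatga

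The Wnt5a window held an AP-1 word (TGANTCA, in 4.73% of DFL and 4.82% of PFL windows), the Slc30a10 window a SOX word (ACAATGG, 2.50% and 2.41%) and the Hnrnpa3 window the E-box CAGCTG (13.6% and 13.5%). None of the 10 printed windows held the posterior HOX word CCAATAAA, which 0.44% of DFL and 0.45% of PFL windows held. A match is a run of letters and not a shown binding site.

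Promoter regions were mostly found in both pieces, and most single-list regions lay in gene bodies and intergenic sequence. A promoter region overlapped the 2 kb around a protein-coding start, a gene body region lay inside a protein-coding gene, and the rest were intergenic. In DFL, 18350 regions (30.7%, 30.3 to 31.05) were promoters, 21511 (35.97%) gene bodies and 19943 (33.3%) intergenic. In PFL, 19611 (28.2%, 27.9 to 28.6) were promoters, 25593 (36.8%) gene bodies and 24299 (34.96%) intergenic. Promoter regions were longer than the others, so they made up 42.95% of the covered length in DFL and 39.4% in PFL. The higher promoter share of DFL turned round when both lists were held to the same number of regions, where it was 1.05 percentage points below that of PFL.

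Overlap of 1 bp or more with the opposite list made a region shared. No PFL region overlapped 26.7% of all DFL regions (15994), and no DFL region overlapped 38.1% of all PFL regions (26481). Of the promoter regions, 95.1% of DFL and 88.7% of PFL were shared. The shared share was 61.4% in DFL and 50.2% in PFL for gene bodies, and 65.97% in DFL and 52.5% in PFL for intergenic regions. Promoters thus gave 896 DFL-only and 2213 PFL-only regions, gene bodies 8312 and 12738, and intergenic sequence 6786 and 11530. DFL held 28.8% (27.2 to 30.4) of the single-list promoter regions but 39.5% (38.8 to 40.2) of those in gene bodies and 37.05% (36.3 to 37.7) of the intergenic ones. With lists of equal size the intergenic shared share of DFL exceeded that of PFL by 3.88 percentage points against 13.4 in the full lists. For gene bodies the same difference was −0.47 points with equal lists and 11.1 in the full lists.

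**Figure D1:**
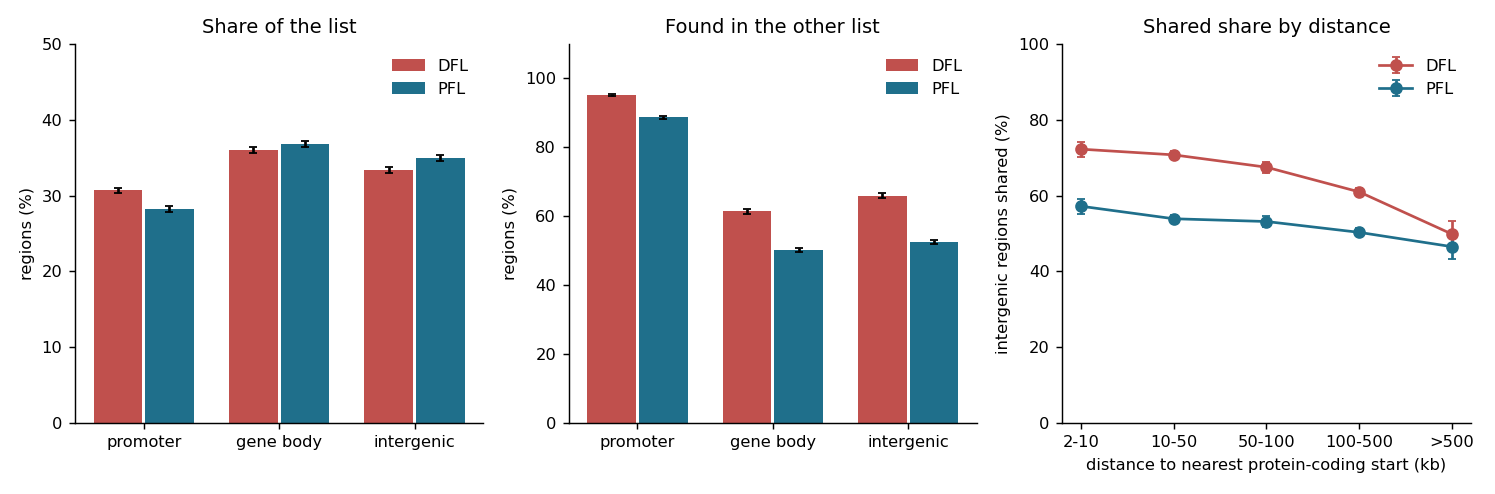
Share of each list by class (left, % of regions), share found in the other list (middle, %) and shared share of intergenic regions by distance to the nearest protein-coding start (right, kb). Red is DFL and blue PFL, bars and points are shares of 1 library each and error bars are 95% Wilson intervals. Promoter regions were shared at 95.1% in DFL and 88.7% in PFL, and the shared share was lowest beyond 500 kb, at 49.8% in DFL and 46.5% in PFL.

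Whether a region was shared went with its strength. Each list was split by −log10 q into 4 bins of equal size. In the weakest bin, 45.4% of DFL and 27.7% of PFL regions were shared. In the strongest bin the shares were 99.7% in DFL and 99.5% in PFL. Shared shares differed by class within a bin too: in the third bin, 95% of DFL promoter regions were shared against 82.5% of DFL intergenic ones, and 86.1% of PFL promoter regions against 71.9% of PFL intergenic ones. Of the single-list regions, 22.9% in DFL and 19.1% in PFL lay within 1 kb of a region of the other list. This was most common at promoters, with 48.2% of the DFL-only and 41.7% of the PFL-only regions.

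The 5 strongest single-list promoter regions of each list lay at different distances from the other list. On the DFL side, the regions at Sirt1, a protein deacetylase, Cul3, a ubiquitin ligase scaffold, Rbm15b and Jarid2, a Polycomb cofactor, lay only 101 to 215 bp from a PFL region. Dbx2, a homeobox gene, was the exception, with a pileup of 155 fragments, a fold of 3.85 and no PFL region within 12665 bp. On the PFL side, the region at Kcnh2, a potassium channel gene, was 22280 bp from any DFL region and had a pileup of 99. The Pkdcc region, at a gene for a secreted kinase needed for limb bone growth, had a pileup of 138 and lay 58912 bp from the DFL list. The Hoxd8 region was 2012 bp long with 5 summits and a pileup of 190, and the nearest DFL region was 4010 bp away. The other PFL promoters of this group, Dok5 and Tmem86a, lay 7172 and 697 bp from a DFL region.

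Farther from promoters, the strongest DFL-only gene body region lay on chromosome 5, 59.1 kb from the start of Nsg1, with a pileup of 193 and a fold of 4.70. Another one, 59.8 kb from the start of Stx18, lay right beside it with a pileup of 182. Both lay within the body of Stx18. Their nearest PFL regions were 57719 and 58355 bp away. Those nearest to the starts of Fgf12 (pileup 109), Tshz1 (183), a zinc-finger gene, and 5730480H06Rik (103) followed in gene bodies. The intergenic DFL-only group was led by regions near C1s1 (pileup 120), Ctsb (118), Cd109 (102) and a pair near Zfp438 (139 and 136). In PFL the gene body group was led by regions nearest to the starts of Cdk5r1 (102), Celf2 (114), Slc35f3 (95), Psd2 (91) and Tspan5 (98). The intergenic PFL-only group was led by regions near Smug1 (123, fold 7.63), Unc93a2 (111), Btrc (104), Nfe2l3 (135) and Ldlrad3 (94). Of these, the Celf2 and Tspan5 regions lay 233 and 327 bp from a DFL region, and the Unc93a2 region lay 82975 bp away.

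Single-list regions were short and simple, and those of PFL were longer than those of DFL in every class. The median length of intergenic regions was 297 bp in DFL-only and 325 bp in PFL-only sets, against 489 bp and 577 bp for the shared regions of DFL and PFL. At promoters the medians were 271 bp (DFL-only) and 304 bp (PFL-only), and 798 bp and 863 bp for shared regions of DFL and PFL. Regions with 2 or more summits made up 9.93% (9.47 to 10.4) of the DFL-only and 14.3% (13.9 to 14.8) of the PFL-only regions. Among shared regions they made up 34.6% in the DFL list and 39.7% in the PFL list. The intergenic multi-summit share of DFL-only minus PFL-only regions was −4.935 percentage points, and −9.80 where a fold of at least 3 was asked for. Regions with 1 summit were shared at 66.5% in DFL and 53.3% in PFL, and those with 2 at 88.6% and 78.6%. With 4 summits 96.9% of DFL and 94.3% of PFL regions were shared, and with 5 or more 98.5% and 93.0%.

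**Figure D2:**
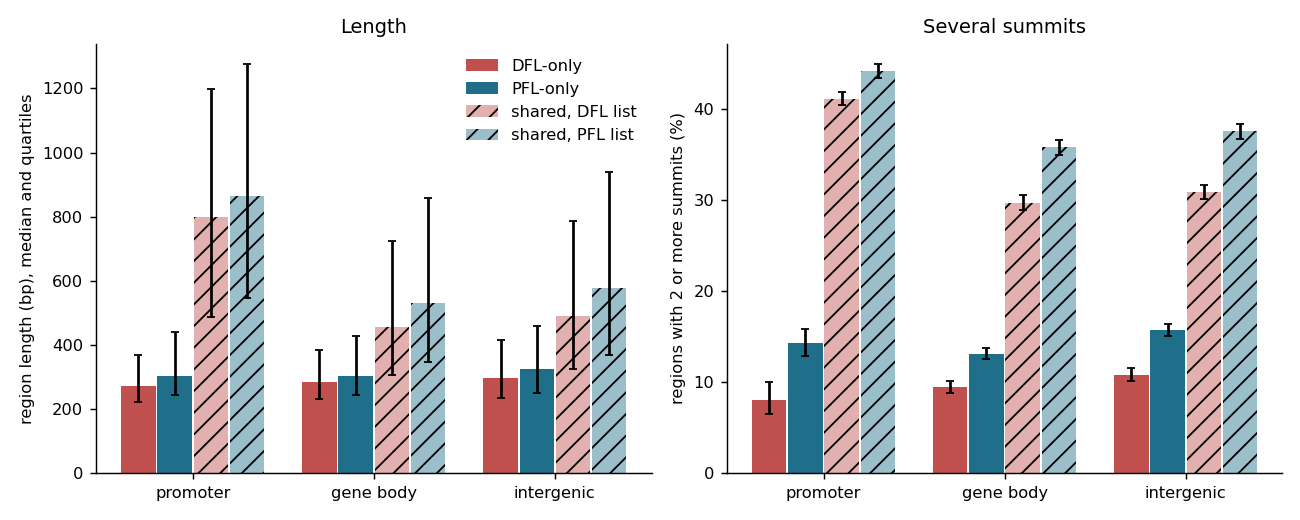
Region length in bp (left, bars are medians and error bars quartiles) and share of regions with 2 or more summits in % (right, error bars are 95% Wilson intervals), by class. Solid red is DFL-only, solid blue PFL-only, and hatched bars are the shared regions of each list. Shared promoter regions had medians of 798 bp in DFL and 863 bp in PFL, against 271 bp in DFL-only and 304 bp in PFL-only promoter regions.

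The longest domains of both lists included genes of the limb mesenchyme. In DFL the longest, 3796 bp with 6 summits, lay in the body of Dnm3, 0.276 kb by its midpoint from the start of the non-coding gene Dnm3os. The next were the promoters of Cped1 (3791 bp, 9 summits), Tbx15 (3361 bp, 8 summits), a T-box gene of limb and skin mesenchyme, and Adgrl3 (3315 bp), and an intergenic region near Esp38 (3341 bp) close to the non-coding gene Gm26917. Notch2 and Src, in their gene bodies, had 8 and 7 summits. In PFL the longest were the promoters of Mab21l1 (5282 bp, 10 summits), Prrx1 (4436 bp, 9 summits), a homeobox gene of limb mesenchyme, Lrig3 (4333 bp, 11 summits), Chd2 (4032 bp) and Mecom (3952 bp). Adgrl3 and Hs3st3b1 had 8 summits each in PFL. All of these overlapped a region of the other list.

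DFL-only intergenic regions lay farther from genes than PFL-only ones. Their median distance to the nearest protein-coding start was 87.4 kb, against 67.9 kb for PFL-only regions, while shared intergenic regions lay at 59.6 kb in the DFL list and 60 kb in the PFL list. Beyond 100 kb were 46.2% (45.06 to 47.4) of the DFL-only and 39.8% (38.9 to 40.65) of the PFL-only intergenic regions. The shared share was lower at longer distances in both lists. Between 2 and 10 kb from a start it was 72.2% in DFL and 57.2% in PFL, between 100 and 500 kb 60.95% and 50.3%, and beyond 500 kb 49.8% and 46.5%. The difference in median distance, 19.6 kb, was 3.70 kb when non-coding genes were also counted. The X chromosome stood apart, with 85.8% of its 1171 DFL regions and 70.4% of its 1386 PFL regions shared, and DFL held 28.8% of its single-list regions. On the autosomes the shared share ranged over 69.1 to 76.7% in DFL and 56.6 to 66.6% in PFL.

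The height of a peak adds to its presence. The summit pileup, the number of fragments over the summit, was solved from the fold and −log10 p of each line, and each list was divided by its median over shared promoter loci, 160 in DFL and 170 in PFL. At 41197 shared loci, 2.51% (1035) were at least 2 times higher in DFL and 1.92% (793) at least 2 times higher in PFL on that scale. Promoters had the smallest spread, with an SD of 0.32 in log2 DFL over PFL, against 0.51 in gene bodies and 0.54 in intergenic loci. Their median pileups were also the highest. Gene body loci had medians of 48 in DFL and 50 in PFL, and intergenic loci 50 and 53. Ratios of small counts scatter more, and the part of this in the SDs and in the shares below was not tested. At promoters, 101 of 16824 loci (0.600%) passed this mark towards DFL and 150 (0.892%) towards PFL. In gene bodies 484 of 12193 (3.97%) did so towards DFL and 248 (2.03%) towards PFL, and in intergenic sequence 450 of 12180 (3.69%) and 395 (3.24%). The peak caller kept 1 read per position, which limits how high a pileup can be. In all, 8.24% of shared promoter loci reached 300 in DFL and 11.1% in PFL, and the highest summits stood at 394 in DFL and 409 in PFL. Scaled by the lowest background instead, 53 promoter loci passed towards DFL and 267 towards PFL.

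The 5 promoter loci farthest towards DFL were at Hoxd13, Msx1, Evx2, Irx1 and Gm9837. At a locus whose summit lay 0.87 kb from the start of Hoxd13, the posterior gene of the HoxD cluster, the pileup was 339 in DFL and 64 in PFL (log2 2.49, 5.63 times after scaling). Msx1, a homeobox repressor of distal mesenchyme, had 305 in DFL and 79 in PFL (log2 2.04). Evx2, the neighbour of Hoxd13, had 377 in DFL and 99 in PFL (log2 2.02). Irx1, an Iroquois homeobox gene, had 207 in DFL and 57 in PFL (log2 1.95), and Gm9837 had 119 in DFL and 37 in PFL (log2 1.77). The PFL region at the Hoxd13 locus was weak, at −log10 q of 3.20. Within 2 kb of any Hoxd13 start, however, PFL regions reached a pileup of 131 and a −log10 q of 25.4. The highest DFL values there were 339 and 16.8. On that basis the log2 ratio of Hoxd13 was 1.46, below those of Msx1 and Evx2.

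Towards PFL, Shox2, the homeobox gene of the upper arm, was farthest, with 71 in DFL and 331 in PFL (log2 −2.13). Acta2, smooth muscle actin, had 28 in DFL and 119 in PFL (log2 −2.00). Hoxd3 had 36 in DFL and 149 in PFL (log2 −1.96), and Flnc, a filamin of muscle, had 48 in DFL and 192 in PFL (log2 −1.91). Adamts15, a secreted protease, had 41 in DFL and 154 in PFL (log2 −1.82). The DFL promoter regions of Acta2 and Hoxd3 were weak, at −log10 q of 2.4 and 5.69.

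**Figure D3:**
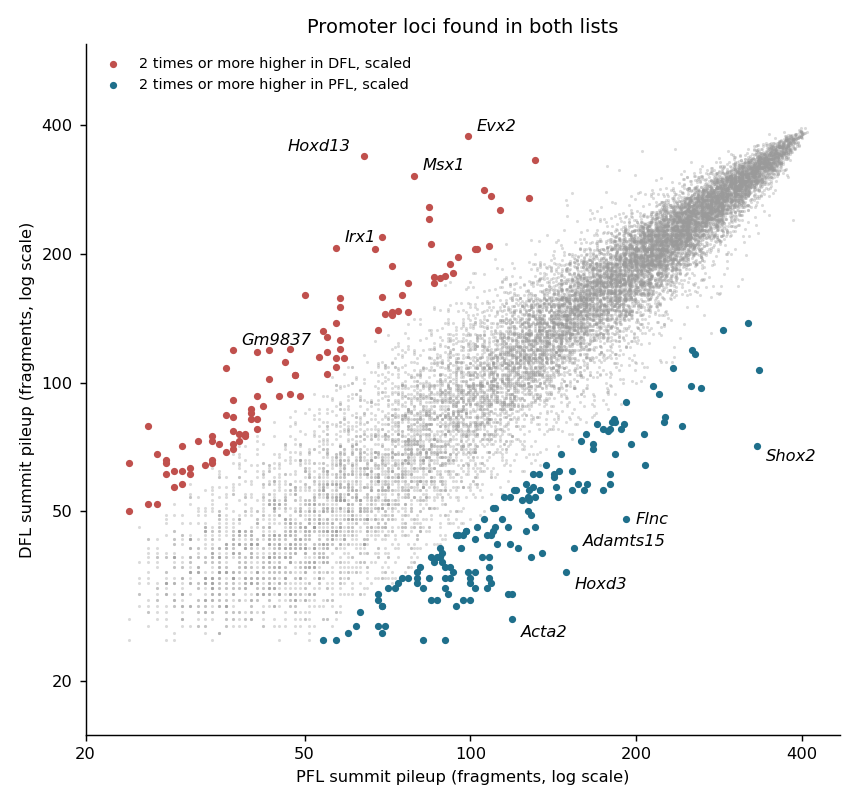
Summit pileup (fragments, log axes) in DFL (vertical) against PFL (horizontal) at 16824 promoter loci found in both lists, 1 point per locus. Red and blue points were at least 2 times higher in DFL or in PFL after scaling. The labelled loci at Hoxd13, Msx1 and Evx2 reached 305 to 377 in DFL with 64 to 99 in PFL. The Shox2 locus reached 71 in DFL and 331 in PFL. Over all its starts Hoxd13 reached 131 in PFL.

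Gene body and intergenic loci reached similar ratios at lower pileups. The extreme in gene bodies was 37.0 kb from a start of Wnt5a, a ligand for limb outgrowth, with 163 in DFL and 29 in PFL (log2 2.58, 5.97 times after scaling). A locus near Msx2, the partner of Msx1, had 174 in DFL and 38 in PFL, and one within Gli3, the hedgehog-pathway factor that limits digit number, had 123 in DFL and 28 in PFL. Loci near Prep (141 in DFL, 32 in PFL) and Dbx2 (136 in DFL, 31 in PFL) completed the group. Towards PFL these were near Rab4a (37 in DFL, 151 in PFL), Cavin1, a caveola protein (25, 95), Jph2, a junctophilin of muscle (30, 111), Ptprm (25, 91) and Dclk2 (58, 209).

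Among intergenic loci, those near Slc30a10 (146 in DFL, 28 in PFL), Atp5g3 (156, 30), Ccnd2, a cyclin (155, 30), Tcf7l2, a Wnt-pathway factor (149, 33), and Thnsl2 (213, 48) were highest towards DFL, with log2 values of 2.24 to 2.47. The Atp5g3 locus lay on the digit side of the HoxD cluster, 292.6 kb from that gene. Towards PFL were loci near Hnrnpa3 (37 in DFL, 169 in PFL), at the far end of the arm side of the HoxD cluster, Pkdcc (31, 133), Msgn1 (43, 174), Daam1 (30, 121) and Wac (35, 140), with log2 values of −1.91 to −2.10.

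Single-list regions were counted by the nearest gene. Of 21701 protein-coding genes, 2546 (11.7%) had more DFL-only than PFL-only non-promoter regions nearest to them, and 5679 (26.2%) had more PFL-only ones. Zfhx3, a zinc-finger homeobox gene, had 61 DFL-only and 28 PFL-only regions over 1.31 Mb. Mecom had 50 and 17, Prickle1, a planar polarity gene, 40 and 11, and Gli3 29 and 9. Around other genes the DFL-only regions stood nearly alone: Atp5g3 had 27 DFL-only regions and no PFL-only one, Stx18 had 22 and none, and Cmpk2 had 23 and 1. Msx1, the neighbour of Stx18, added 18 DFL-only regions and no PFL-only one, and none of the non-promoter regions nearest to it in DFL was shared. Adamts5, an aggrecan protease, had 23 and 3, Cacna2d3, beside Wnt5a on chromosome 14, 23 and 3, and Robo2, an axon guidance receptor, 22 and 2.

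On the PFL side, Npvf, a neuropeptide gene with no promoter region in either list, led with 1 DFL-only and 40 PFL-only regions over 0.39 Mb of intergenic sequence. Magi1, a junction scaffold, had 9 DFL-only and 36 PFL-only regions, Pdzrn3, a ubiquitin ligase, 4 and 31, and Dleu7 4 and 30. Dkk2, a secreted Wnt modulator, had 1 and 27, and Ttll7, a tubulin-modifying enzyme, had 1 and 26. Tbx3, a T-box gene of limb patterning, had 2 and 26, Sel1l 4 and 27, Limch1 3 and 25, and Trim52 3 and 25. Dleu7 and Trim52 also had a promoter region in PFL alone, and for the other named genes on both sides except Npvf the promoter carried H3K27ac in both pieces.

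**Figure D4:**
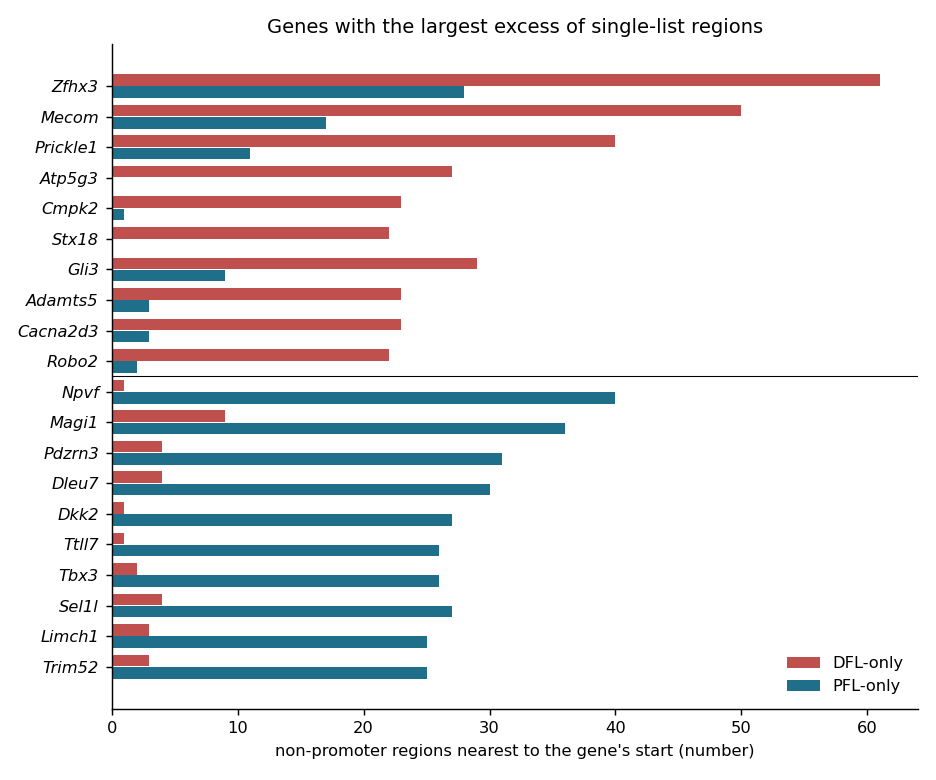
Number of non-promoter regions found in one list alone whose nearest protein-coding start belongs to the gene, for the 10 genes with the largest excess in DFL (above the line) and the 10 in PFL (below it). Red bars are DFL-only and blue bars PFL-only regions. Atp5g3 and Stx18 had 27 and 22 DFL-only regions with no PFL-only region, and Npvf had 1 DFL-only and 40 PFL-only regions.

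Gene lists for the limb axis and for cell types were read in the same way. A promoter counted as acetylated when a region lay within 2 kb of any of the gene's starts. Of all 21701 genes, 12591 had a promoter region in both lists, 1.16% (252) in DFL alone, 3.59% (780) in PFL alone and 8078 in neither. Over all genes DFL held 38.4% of the single-list non-promoter regions. The lists hold 9 to 20 genes, were drawn up with results of these data known, and are described by counts.

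Among 20 distal limb factors, 17 had a promoter region in both pieces, none in DFL alone and 2 in PFL alone (Sall3, a zinc-finger gene, and Grem1, a BMP antagonist). The difference lay in height and in the regions around them. Their median log2 pileup of DFL over PFL was 0.67, 16 of 17 were above 0 and 7 were at least 2 times higher in DFL. Msx2 had 258 in DFL and 84 in PFL, Tfap2b 282 and 106, Dlx6 132 and 54, and Lhx2 271 and 128. Hand2 (327 in DFL, 337 in PFL) and Sall1 (261, 330) were near even. Of the single-list regions nearest to these genes, 115 were DFL-only and 55 PFL-only, so DFL held 67.6% (60.3 to 74.2). Msx1 (18 DFL-only, 0 PFL-only), Tfap2b (15 and 0), Msx2 (10 and 0), Hoxa13 (6 and 0), Evx2 (6 and 0) and Lhx9 (7 and 1) gave most of this excess, whereas Sall1 (4 and 10) and Grem1 (0 and 4) went the other way. With a fold of at least 3, 28 were DFL-only and 20 PFL-only, and DFL held 58.3% (44.3 to 71.2), against 35.7% over all genes.

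Among 20 proximal limb factors, 16 promoters were acetylated in both pieces, 1 in DFL alone (Aldh1a2, the retinoic acid synthesis enzyme, pileup 45) and 2 in PFL alone (Pkdcc and Alx1, pileups 138 and 66). The median log2 ratio was −0.10, and 12 of 16 were below 0. Besides Shox2, Alx4, an aristaless-type homeobox gene, had 48 in DFL and 100 in PFL (log2 −0.97), and Meis1, a homeobox cofactor of the arm domain, had 148 in DFL and 208 in PFL. Meis2 had 76 in DFL and 83 in PFL. Irx5, an Iroquois homeobox gene, had 131 in DFL and 77 in PFL (log2 0.85). Hoxa11, the forearm Hox gene, had 354 in DFL and 367 in PFL, both near the highest pileups of the libraries. Of the single-list regions, 44 were DFL-only and 103 PFL-only, and DFL held 29.9% (23.1 to 37.8), against 38.4% over all genes. Pkdcc had 2 DFL-only and 24 PFL-only regions, Shox2 0 and 8, Tbx15 3 and 11, and Meis1 1 and 8. Irx5 (5 and 0) was on the DFL side. With a fold of at least 3, 15 were DFL-only and 34 PFL-only. DFL then held 30.6% (19.5 to 44.5), an interval that covered the 35.7% over all genes.

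Muscle genes had the most promoters acetylated in one piece alone of the 14 lists. Of 20, 7 had a promoter region in DFL and 19 in PFL, and 12 had one in PFL alone. These included the determination factors Myf5 (pileup 61 in PFL), Myod1 (59) and Myog (81), the satellite cell factor Pax7 (52), the acetylcholine receptor genes Chrna1 (81) and Chrng (60), and the contractile genes Actc1 (51), Myh3 (44) and Des (48). The unscaled pileups of all acetylated promoters of the list summed to 905 in DFL and 1776 in PFL. A promoter without a region added nothing. Six4 (264 in DFL, 222 in PFL) and Mef2c (153 in DFL, 136 in PFL) were near even, and Tnnt1, a troponin, had 40 in DFL and 135 in PFL. Single-list regions numbered 21 in DFL and 49 in PFL, yet Mef2c had 13 DFL-only and 2 PFL-only. DFL held 30% (20.5 to 41.5) of them, against 38.4% over all genes. No DFL region lay at the promoters of Myf5, Myod1 and Myog, and the part of muscle cells in the other PFL-only regions was not tested.

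Connective tissue promoters also leaned to PFL in height, and more vessel genes had a promoter region in PFL than in DFL. Of 20 tendon and connective tissue genes, 17 had a promoter region in both pieces, with a median log2 ratio of −0.41. Dcn and Lum, the matrix proteoglycans decorin and lumican, had 76 in DFL and 207 in PFL, and 72 in DFL and 208 in PFL. Tnc, tenascin C, had 78 and 174, with 5 DFL-only and 23 PFL-only regions around it. In this list 12 genes had more PFL-only regions and 6 more DFL-only ones, among the latter Tcf4 (31 and 21). All single-list regions of the list numbered 78 in DFL and 129 in PFL. DFL thus held 37.7% (31.4 to 44.5), near the 38.4% over all genes. With a fold of at least 3 it held 35.3%, against 35.7% over all genes. Postn, periostin, was acetylated in PFL alone (64) and Dpt in DFL alone (60). Of 20 endothelial genes, 12 had a promoter region in DFL and 17 in PFL, and Cldn5, Esam, Sox7, Sox17, Sox18 and Robo4 had one in PFL alone with pileups of 28 to 44, while Tie1 had one in DFL alone (28). DFL held 23.8% (15.8 to 34.1) of the single-list regions near endothelial genes, 19 against 61 in PFL. Of the PFL-only regions, 23 were nearest to Cdh5. With a fold of at least 3, 11 were DFL-only and 20 PFL-only, and DFL held 35.5% (21.1 to 53.1), against 35.7% over all genes. The unscaled pileups of the acetylated endothelial promoters summed to 991 in DFL and 1289 in PFL, and a promoter without a region added nothing. At the 11 acetylated in both pieces the median log2 ratio was −0.12, with 5 above 0 and 6 below.

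Ectoderm promoters went the other way. Of 20 epithelial genes, 17 had a promoter region in DFL and 12 in PFL, with summed pileups of 1438 in DFL and 800 in PFL. These sums are unscaled, and a promoter without a region adds nothing to them. The largest parts came from Tfap2a and Cdh3 (253 in DFL, 165 in PFL). In DFL alone were Krt5, a basal keratin (45), Epcam (66) and Cdh1, the adhesion genes (39), Esrp1, an epithelial splicing factor (46), Grhl3 (42), Wnt7a, the dorsal ectoderm ligand (40), and Sp6 (39), while Krt8 (27) and Krt18 (41) were in PFL alone. Of those in both, Tfap2a had 273 in DFL and 109 in PFL, Grhl2 had 141 and 81, and the median log2 ratio was 0.71. Single-list regions numbered 36 in DFL and 21 in PFL, of which Tfap2a had 12 and 2. More DFL-only than PFL-only regions lay near 6 genes, fewer near 7, and equal numbers near 7. With a fold of at least 3 the list's single-list regions numbered 8 and 14, and DFL held 36.4% (19.7 to 57.0), against 35.7% over all genes. The part of ectoderm cells in the DFL-only regions was not tested.

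Most cartilage promoters had a log2 ratio below 0. Of 20 genes, 17 were acetylated in both pieces, with a median log2 ratio of −0.23 and 13 of 17 below 0, and Comp and Runx3 in PFL alone. Acan, aggrecan, had 41 in DFL and 77 in PFL (log2 −0.82), Col9a2 had 111 and 205 (−0.80), and Runx2, the bone master factor, had 104 and 179 (−0.70). Col2a1, the main collagen of cartilage, had 207 in DFL and 274 in PFL, and Sox9, the cartilage master factor, 263 in each. Around Sox9 lay 33 DFL-only and 15 PFL-only regions, around Sox6 21 and 12 and around Sox5 19 and 10. Of the list's single-list regions, 116 were DFL-only and 85 PFL-only. Among regions with a fold of at least 3 they numbered 34 and 37, and DFL held 47.9% (36.7 to 59.3), against 35.7% over all genes. Erg stood in both the cartilage and the endothelial list.

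Most blood genes and 10 of the nerve genes lacked a promoter region. Of 20 blood genes, 13 had a promoter region in neither list, among them Gata1, Spi1 and the globin gene Hba-a1, and Ptprc was the 1 gene split, in DFL alone (40). Of the single-list regions near blood genes, 39 were DFL-only and 23 PFL-only, so DFL held 62.9% (50.5 to 73.8). Ptprc had 18 DFL-only and 7 PFL-only of these, and Runx1 15 and 13. With a fold of at least 3, 12 were DFL-only and 17 PFL-only, and DFL held 41.4% (25.5 to 59.3), against 35.7% over all genes. Of 20 nerve and glia genes, 10 had no promoter region in either list, Gfra3 was in DFL alone (61), and Isl1 (58) and Nefm (24) were in PFL alone. Near the nerve and glia genes 10 regions were DFL-only and 19 PFL-only. DFL thus held 34.5% (19.9 to 52.7), an interval that covered the 38.4% over all genes. All 20 housekeeping promoters were acetylated in both pieces, with log2 ratios of −0.34 to 0.27 and a median of 0.01. Their unscaled pileups summed to 5619 in DFL and 5941 in PFL. Near housekeeping genes 2 regions were DFL-only and 13 PFL-only, so DFL held 13.3% (3.74 to 37.9) of few regions, against 38.4% over all genes. With a fold of at least 3 they numbered 0 and 4.

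The Hox clusters, whose genes are ordered along the chromosome as they are used along the body, differed from each other. In HoxD, the promoter ratio was highest at Hoxd13 (339 in DFL and 131 in PFL over all its starts, log2 1.46), followed by Hoxd12 (349 and 205, 0.86) and Hoxd11 (312 and 281, 0.24). It was below 0 at Hoxd10 (266 and 312, −0.14) and Hoxd9 (174 and 236, −0.35). Hoxd8 was acetylated in PFL alone (190), and Hoxd3 had 36 in DFL and 149 in PFL. In HoxA, Hoxa13 had 353 in DFL and 235 in PFL (log2 0.67), while Hoxa9 (359 and 359), Hoxa10 (377 and 399) and Hoxa11 were within 0.09 of 0. The pileups of these 3 were near the highest of the libraries, 394 in DFL and 409 in PFL, where a difference can be hidden. Hoxa2 was acetylated in PFL alone (44).

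In HoxC, no gene had a promoter region in both pieces. The posterior genes Hoxc9 (38), Hoxc10 (66), Hoxc11 (89), Hoxc12 (78) and Hoxc13 (52) were in DFL alone, and the anterior Hoxc5 (34) and Hoxc6 (28) in PFL alone. In HoxB, 9 of 10 genes had none in either list, and Hoxb2 had 54 in DFL and 118 in PFL.

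**Figure D5:**
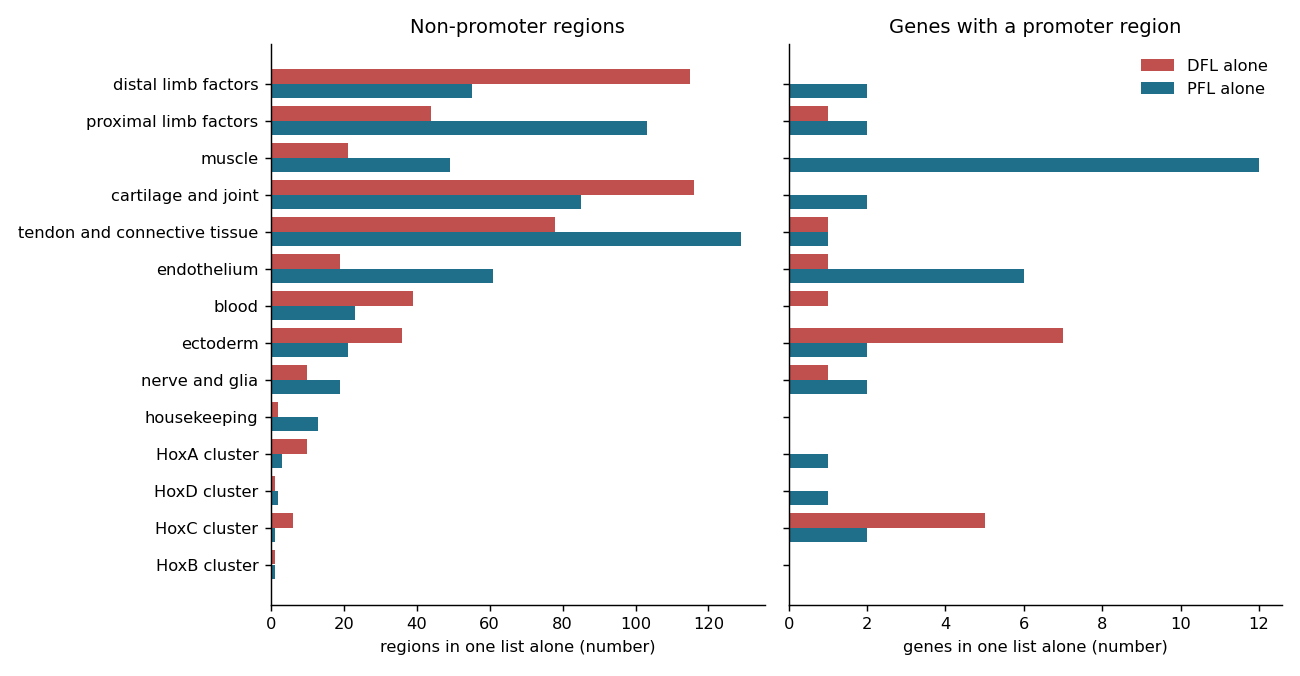
Number of non-promoter regions in one list alone (left) and of genes with a promoter region in one list alone (right) for the 14 gene lists. Red bars are DFL and blue bars PFL. Distal limb factors had 115 DFL-only and 55 PFL-only regions, and 12 of 20 muscle genes had a promoter region in PFL alone.

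Sequence and binding were not used to sort the regions. Windows of 200 bp on either side of the summit had median GC contents of 46.6% in DFL-only and 46.9% in PFL-only intergenic regions, and 55.4% in DFL-only and 52.6% in PFL-only promoter regions. The CpG ratio, observed over expected, was 0.389 in DFL-only and 0.384 in PFL-only promoter windows, against 0.709 and 0.699 in shared ones of DFL and PFL. Single-list promoters were thus poorer in CpG than shared ones.

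Motif words were counted in the same windows, on both strands. In intergenic windows the TAAT word TAATTA, read by LHX, DLX and other homeodomains, was in 10.5% of DFL-only and 8.38% of PFL-only windows, and the myogenic E-box CAGCTG in 23.1% and 26.1%. The posterior HOX word CCAATAAA was in 1.80% and 1.53%, a difference of 0.27 percentage points that covered 0 with its interval. Windows of 500 bp on either side gave a difference of 1.96 points, and those of 100 bp on either side gave −0.024. At promoters the MEIS and TGIF word TGACAG was in 18.9% of DFL-only and 24.6% of PFL-only windows. In intergenic windows it was near even, at 25.8% (24.8 to 26.8) in DFL-only and 26.7% (25.9 to 27.5) in PFL-only ones. Other words were also more common in PFL-only promoter windows, among them CAGCTG (21.5% in DFL-only, 25.7% in PFL-only) and GGAATG (15.5% and 18.7%). The SP and KLF word GGGGCGGGG was in 7.37% of DFL-only and 4.93% of PFL-only promoter windows.

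The HOX13 lists came from whole forelimb buds at an earlier stage. HOXA13 regions overlapped 36.5% of DFL-only and 13.0% of PFL-only intergenic regions, and HOXD13 regions 27.1% and 8.07%. Promoter regions with HOXA13 made up 18.8% of the DFL-only and 10.3% of the PFL-only set. Shared intergenic regions were at least as often overlapped by HOXA13 as DFL-only ones, at 42.3% in DFL and 43.0% in PFL, and they were longer. For each HOX13 region only the summit with the highest −log10 q was used, and for HOXA13 it was often outside the acetylated region. It lay inside in 27.7% (26.0 to 29.5) of the overlapped DFL-only intergenic regions and in 44.5% (41.97 to 46.99) of the PFL-only ones, against 57.7% and 62.3% of the shared ones in DFL and PFL. The share of intergenic regions with HOXA13 or HOXD13, DFL-only minus PFL-only, was 24.2 percentage points by overlap. It was 5.0 where the strongest summit of a HOX13 region had to lie inside.

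Regions of CTCF in the same piece overlapped 5.07% of DFL-only and 5.78% of PFL-only intergenic regions, and 13.8% and 14.5% of the shared ones in DFL and PFL. H3K27me3 marked 11.7% of the DFL-only and 24.9% of the PFL-only promoter regions in the piece where they were acetylated, against 5.24% and 8.45% of the shared ones in DFL and PFL. The DFL H3K27me3 list was smaller, with 9083 regions against 13873 in PFL. Read against the opposite piece, PFL H3K27me3 overlapped 18.2% of DFL-only promoter regions and DFL H3K27me3 overlapped 20.97% of PFL-only ones.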

How the data were processed

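H3K27ac ChIP-seq libraries of DFL and PFL, 1 each, were analysed from peak lists made by the study. Per the labels, cutadapt, Bowtie, SAMtools and MACS2 were used with mm10. According to the methods, reads of a mapping quality of at least 30 were kept, and peaks were called for each library. The H3K27ac reads were single-end, and MACS2 was run with no input control, 1 read kept per position and a q-value of 0.05. Each deposited line holds an integer score, a fold ratio of summit pileup over local background, the −log10 p and −log10 q that the authors' caller gave, and a summit offset. Lines on the mitochondrial genome, chromosome Y and unplaced scaffolds were left out. The deposited lists give no read totals, so depth was read from the solved pileup. A whole-number pileup was solved from the fold and the Poisson −log10 p (tolerance 0.001). It was found for all but 3 DFL and 9 PFL summits, and the lowest backgrounds were 12.5 fragments in DFL and 11.9 in PFL. A total of 41249 starts of 21755 protein-coding genes came from GENCODE vM21 basic annotation, and the 21701 genes with a unique symbol were counted. Sequences came from GRCm38.p6.

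Regions were named by fixed rules: the 5 strongest DFL-only and PFL-only regions per class, the 5 longest and the 5 with most summits per list, the 5 highest and lowest pileup ratios per class, the 10 genes with the largest excess on each side, and list genes with a split promoter or the largest differences. Other list genes, the 4 windows at shared loci and the HOX13 summit counts were chosen after their values were seen. The members, lists and rules were chosen with earlier results of these data known. The solver, the overlaps and the ratios were tested on simulated data. Alternatives were stricter peaks, lists of equal size, other promoter distances, other annotation, autosomes only, other overlap rules, stitching, other scales and other windows. Python 3.11.15, NumPy 2.4.6, SciPy 1.17.1 and pandas 2.3.3 were used.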

Additional observations from a re-analysis of the deposited data

Results flagged for a closer look

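Lines outside the chromosomes compared above carried signal that no comparison used. On the mitochondrial genome, which has no histones, there were 21 DFL lines and 4 PFL lines. On chromosome Y there were 32 DFL lines and 28 PFL lines, and on unplaced scaffolds 65 DFL lines and 60 PFL lines. There were no control samples to set them against, and what gave rise to them was not tested.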

How the results depend on the processing

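Of 97 values of the main comparisons under other settings, 70 stayed within the counting interval or within 1.5 times a count, 26 moved and 1 reversed. Differences are DFL minus PFL, or DFL-only minus PFL-only, and the cause of each move was not tested except that equal lists leave out the weakest PFL regions. The promoter share difference of 2.47 percentage points was 4.44 with a fold of at least 3 and −1.05 with lists of equal size. The intergenic shared share difference of 13.4 points was 15 with a fold of at least 3, 3.88 with equal lists, 15.9 where 50% of a region had to be covered and 12.4 where 1 kb of distance was allowed.
The intergenic length difference of −28 bp was −43 bp at −log10 q of at least 5, −50 bp at a fold of at least 3, −54 bp with equal lists, −36 bp under 50% coverage and −52 bp after stitching. The multi-summit difference of −4.935 points was −8.05, −9.80, −6.82, −6.30 and −6.91 under the same 5 settings. The distance difference of 19.6 kb was 3.70 kb with all annotated genes. Promoter loci at least 2 times higher numbered 44 in DFL and 59 in PFL with a fold of at least 3, against 101 and 150, and 53 and 267 with the lowest background as scale. All annotated genes gave 160 in DFL. The distal list's DFL share, 17.6 points above 50, was 8.33 above it with a fold of at least 3, where DFL held 35.7% over all genes. The CCAATAAA difference of 0.27 points was 1.96 in windows of 500 bp on either side, which hold the word more often. The HOX13 overlap difference of 24.2 points was 31.0 at −log10 q of at least 5 and 35.5 at a fold of at least 3. It was 5.0 with the strongest HOX13 summit inside.
Of 656 further values, 523 stayed, 126 moved and 7 reversed. With equal lists the gene body share difference became 1.81 points and the gene body shared share difference −0.47. With a fold of at least 3 the DFL share, less 50, became −2.11 points for cartilage, −8.62 for blood and −13.6 for ectoderm. The DFL share over all genes was 35.7% at that setting. The promoter CAGCTG difference was 0.071 in windows of 100 bp on either side, and the intergenic CTCF difference 0.31 with the strongest CTCF summit inside.
No paired analysis was possible because each piece had 1 library. The lists give presence above a caller's threshold in 1 library a piece, so an absent region may lie just under it, and 30.7% of DFL and 32.1% of PFL regions had −log10 q below 5.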
